A study of Mus musculus with 32 samples.

Results

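The comparison set lungs of mouse pups injected with saline every day against lungs of untreated pups of the same age, 4 libraries of each and 8 of the 32 libraries of the series, chosen by the treatment label alone. All pups were C57BL/6 and were killed at postnatal day 14 under isoflurane. The Saline daily group received 25 µl of saline per g of body weight into the peritoneum each day, from day 1 to day 13. The Untreated group received no injection, so the saline, the needle and the handling cannot be told apart. The lungs of both groups were perfused with phosphate-buffered saline through the heart, and polyadenylated RNA of the whole lung was sequenced with a stranded kit. The other 12 libraries of that age, from pups given water or a scrambled oligonucleotide, entered the model fits only to estimate the spread between replicates, and are used below to describe genes. Whether every sample came from its own pup is not said in the labels, and the p-values therefore cover the spread among these samples, part of which may be technical.

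The 8 libraries held 7918537 to 10249425 exon reads and 894511 to 1655063 intron reads, counted in genes that also had exon reads. Between 16211 and 16459 genes had exon reads, and 89.8% to 90.9% of the exon reads mapped to a single place. Lung markers were high throughout: the summed level of the alveolar type 2 cell list was 20001 to 23500 CPM (counts scaled to library size) in saline and 19728 to 22512 CPM in untreated lungs. Xist, the RNA that coats the silenced X in female cells, was high in 2 of the 4 saline and 3 of the 4 untreated libraries. Untreated replicate 4 stood apart by its share of intron reads, and the main results are also given without it. In bulk tissue, fewer cells of a type and less RNA per cell cannot be told apart.

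Genes of RNA splicing lead the contrast. The spliceosome removes introns from the primary transcript. U1 particles mark the start of an intron, SR proteins (rich in arginine and serine) mark exons, hnRNP proteins often oppose them, and Clk kinases and the kinases of the Srpk family set the activity of SR proteins by phosphorylation. Many of these proteins limit their own messenger RNA through introns that are kept, or exons that stop translation. Transcripts of Clk1, Clk4 and Ogt are known from mammalian cells to wait in the nucleus with an unspliced intron, named a detained intron. Because such transcripts are polyadenylated, they enter the libraries studied here and contribute exon as well as intron reads.

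The promoters of 3 genes are shown because they belong to the kinase with the largest fall that passed, the gene that held in every left-out fit and the only rise with reads that map to a single place. Each is 300 bases from RefSeq on GRCm38.p6, from 250 bases before to 50 bases after the annotated start, 5′ to 3′ on the gene's strand. Clk4 lies at chr11:51262864-51263163 (plus strand), Prpf38b at chr3:108911680-108911979 (minus strand) and Cat at chr2:103485104-103485403 (minus strand). Capitals mark matches to motifs searched on both strands, TGACGTCA (the CRE) and GCATGCGC (one arm of the NRF1 site) in Clk4, and CGGAAGT (ETS) and AAGATGGC (a YY1 core) in Prpf38b, where both are on the reverse strand.
Clk4: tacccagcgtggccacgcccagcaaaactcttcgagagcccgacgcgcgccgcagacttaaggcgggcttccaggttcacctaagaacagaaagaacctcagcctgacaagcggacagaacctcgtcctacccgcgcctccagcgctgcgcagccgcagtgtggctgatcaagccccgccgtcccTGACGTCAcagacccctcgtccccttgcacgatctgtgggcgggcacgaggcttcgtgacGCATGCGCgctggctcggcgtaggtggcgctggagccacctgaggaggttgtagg
Prpf38b: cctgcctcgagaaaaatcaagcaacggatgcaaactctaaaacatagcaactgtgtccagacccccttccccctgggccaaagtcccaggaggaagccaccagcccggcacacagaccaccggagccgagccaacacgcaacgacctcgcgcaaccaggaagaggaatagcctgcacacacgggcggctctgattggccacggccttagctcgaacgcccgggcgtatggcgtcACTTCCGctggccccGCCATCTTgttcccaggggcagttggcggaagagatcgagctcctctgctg
Cat: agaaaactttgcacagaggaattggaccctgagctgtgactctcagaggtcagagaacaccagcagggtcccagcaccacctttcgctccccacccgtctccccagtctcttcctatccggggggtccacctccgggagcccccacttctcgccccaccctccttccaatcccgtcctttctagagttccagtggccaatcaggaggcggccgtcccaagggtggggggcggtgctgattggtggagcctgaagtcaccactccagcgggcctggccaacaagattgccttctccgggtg
Of the 30 genes that were lower in exon reads, 26 had a promoter in the table. The CRE was found in 3 of these, or 11.5%, against 3.08% of 11262 promoters of genes tested. The NRF1 arm was also found in 3, or 11.5% against 5.01%. The YY1 core was found in 2, or 7.69% against 4.36%, and the ETS motif in 1, or 3.85% against 12.5%. The Cat promoter held none of these letters in this window. The motifs differ in length and do not overlap in the sequences shown, and a match is a description of letters, not of binding.

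Exon reads per gene were compared first. In saline lungs 30 genes fell and 3 rose among 14179 tested (edgeR quasi-likelihood test, adjusted p under 0.05). That is 0.212% lower and 0.0212% higher, or 0.233% in all, and 1310 genes had an unadjusted p under 0.05. The falls were small, with a median log2 fold change of -0.39, a smallest of -0.28 and a largest of -0.51. In all 33 the 4 saline libraries lay outside the range of the 4 untreated ones, a state met by 3.87% of all genes in the lower and 2.87% in the higher direction. Across the 30 genes the median log2 ratio to the untreated mean was -0.45, -0.38, -0.33 and -0.38 in the saline libraries, and -0.06, -0.04, -0.03 and 0.13 in the untreated libraries. Saline replicate 1 was the lowest and untreated replicate 4 the highest.

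The calls rest on all 8 libraries. With 1 library left out, the count of lower genes ran from 1 to 8 (1 without saline replicate 1, 2 or 3, 3 without saline replicate 4, 8 and 5 without untreated replicates 1 and 2, and 1 without untreated replicate 3 or 4), and only Prpf38b passed in all of these edgeR fits. All 30 genes stayed below 0 in each of these fits, with medians from -0.40 to -0.34, the last without untreated replicate 4.

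**Figure D1:**
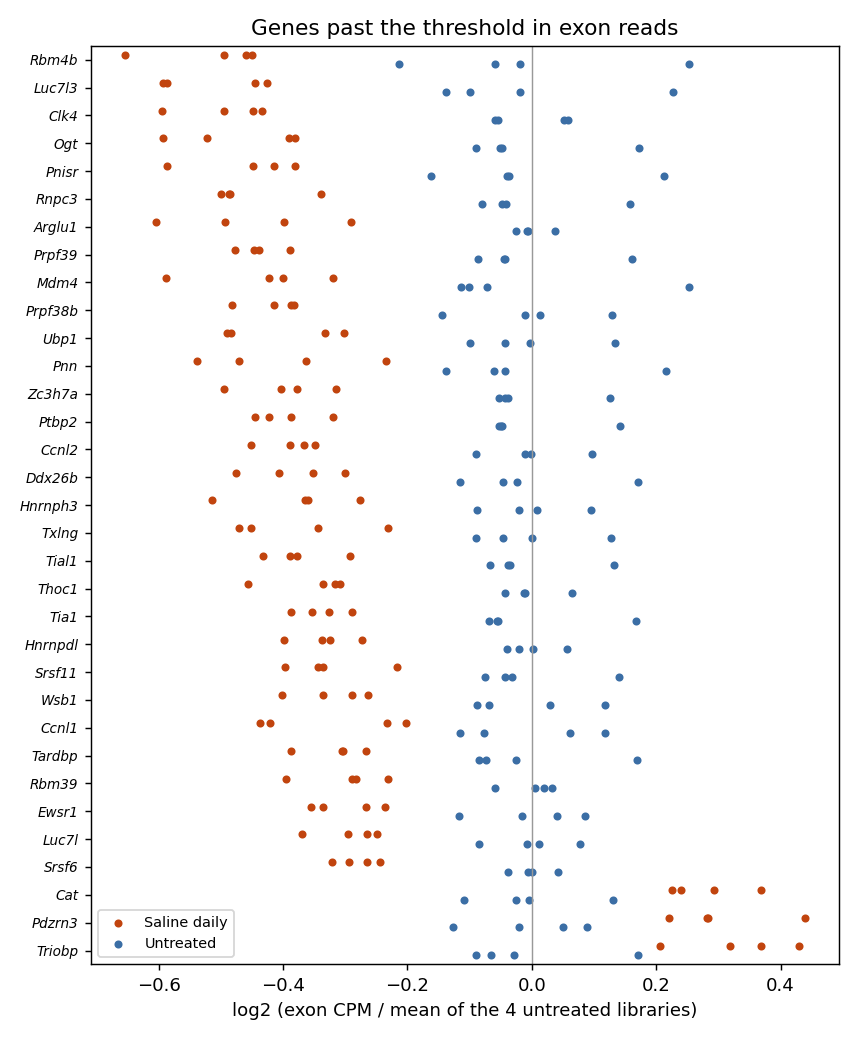
Exon CPM of the 33 genes past the threshold, as log2 of the ratio to the mean of the 4 untreated libraries (x axis), 1 point per library. Saline daily points (orange) lie left of all untreated points (blue) in 30 genes and right of them in Cat, Pdzrn3 and Triobp.

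Of the 30 genes, 19 belong to 7 lists of the splicing machinery, which were assembled with earlier results of these data known. The lists hold 140 different genes tested, of which 19 fell and 0 rose in edgeR (0.212% of all genes fell), 100 lay below 0 and the median log2 fold change was -0.08, beside 0.00 over all genes.

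Among kinases of SR proteins and enzymes of O-linked N-acetylglucosamine, 2 of 11 fell and all 11 lay below 0 (median log2 -0.11). Over all genes tested, 0.212% fell and 49.5% lay below 0. Clk4, a kinase that phosphorylates SR proteins, had 51.9, 48.4, 54.2 and 53.6 exon CPM in saline libraries, against 70.5, 70.2, 75.8 and 76.2 CPM in untreated libraries. Both groups were tight and far apart. Ogt, which attaches N-acetylglucosamine to nuclear and cytoplasmic proteins, had 366, 349, 404 and 402 exon CPM in saline libraries, against 509, 508, 495 and 593 CPM in untreated libraries. Untreated replicate 4 was the high one there. Clk1, the closest relative of Clk4, had 157, 167, 191 and 181 exon CPM in saline libraries, against 253, 253, 280 and 268 CPM in untreated libraries, without overlap. Its log2 fold change of -0.60 (SE 0.12) was larger than any that passed, but its edgeR adjusted p was 0.0539. Clk2 stood at -0.28 (SE 0.08), with an edgeR adjusted p of 0.175. Mgea5, which removes the sugar that Ogt adds, averaged 199 ± 2.94 CPM in saline and 213 ± 10.2 CPM in untreated lungs (SD, n = 4 each), and the ranges overlapped.

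Of the SR proteins and their relatives, 4 of 24 fell and 20 lay below 0 (median -0.22), beside 0.212% and 49.5% of all genes. Srsf6, an SR protein that binds exons, had 260, 265, 271 and 275 exon CPM in saline libraries, against 324, 325, 317 and 335 CPM in untreated libraries. Its exon change was -0.28 on the log2 scale (SE 0.06, adjusted p = 0.0408 by edgeR), the smallest of the falls and among the tightest. Pnisr, a nuclear speckle protein rich in serine and arginine, had 159, 174, 179 and 183 exon CPM in saline libraries, against 213, 232, 232 and 276 CPM in untreated libraries. Arglu1, which joins splicing to nuclear receptor activity, had 115, 107, 132 and 123 exon CPM in saline libraries, against 166, 159, 161 and 161 CPM in untreated libraries. The saline libraries varied more than the untreated ones in this gene. Srsf11 averaged 208 ± 11.2 CPM in saline and 260 ± 18.0 CPM in untreated lungs (SD, n = 4 each).

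Of the U1 particle and its partners, 5 of 14 fell and 12 lay below 0 (median -0.27), beside 0.212% and 49.5% of all genes. It was the largest share among the 7 lists, but these were assembled with earlier results known, so the order is a description. Tial1 and Tia1, paired proteins that help U1 to bind weak sites at the start of an intron, averaged 103 ± 4.21 and 118 ± 3.40 CPM in saline lungs, against 133 ± 8.56 and 150 ± 12.3 CPM in untreated lungs. Luc7l, a homologue of a yeast U1 protein, had 93.2, 96.3, 95.2 and 88.5 exon CPM in saline libraries, against 108, 115, 114 and 121 CPM in untreated libraries. Its relative Luc7l3 and the U1 partner Prpf39 also fell, with a log2 fold change of -0.51 (SE 0.10) and -0.44 (SE 0.09), but only 62.2% and 87.8% of their reads map to a single place.

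In the large list of the later spliceosome, from the U2 particle onwards, Prpf38b was the only fall among 34, and 18 lay below 0 (median -0.02). Of all genes, 0.212% fell and 49.5% lay below 0. Prpf38b, a relative of the yeast spliceosome factor Prp38, had 126, 132, 135 and 134 exon CPM in saline libraries, against 159, 174, 177 and 192 CPM in untreated libraries. Its edgeR adjusted p of 0.00220 was the smallest of the contrast. Rnpc3, a protein of the minor spliceosome, which removes a rare class of introns, was the only fall among 8 of that list. It had 37.9, 37.9, 37.5 and 41.9 exon CPM in saline libraries, against 50.2, 51.5, 51.3 and 59.2 CPM in untreated libraries, with replicate 4 the highest of each group.

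Of the hnRNP proteins 3 of 24 fell (median -0.02), and of other RNA-binding regulators of splicing 3 of 25 (median -0.09). Over all genes 0.212% fell. Ptbp2, which represses exons and is best known from neurons, had 52.8, 53.6, 54.9 and 57.6 exon CPM in saline libraries, against 79.3, 69.5, 69.3 and 69.4 CPM in untreated libraries. Hnrnpdl had 183, 190, 192 and 199 exon CPM in saline libraries, against 234, 241, 237 and 250 CPM in untreated libraries. Rbm39, a coactivator that also binds RNA, averaged 497 ± 23.3 CPM in saline and 611 ± 17.2 CPM in untreated lungs, a change of -0.30 on the log2 scale (SE 0.06, adjusted p = 0.0360 by edgeR). Tardbp, which represses cryptic exons and limits its own transcript, averaged 307 ± 10.7 CPM in saline and 382 ± 32.5 CPM in untreated lungs, and 82.6% of its reads were unique. Hnrnph3 and Rbm4b completed these lists, with unique shares of 58.6% and 86.3%. Rbm4b was the only one of the 30 whose change turned round in reads that span exon junctions, at a log2 fold change of 0.04. In nonsense-mediated decay, the pathway that destroys transcripts with early stop codons, 0 of 15 genes passed by edgeR (0.233% of all genes) and the median was -0.01.

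The other 11 falls lay outside these lists. Thoc1 is a subunit of the THO complex, which couples transcription to export of messenger RNA. It had 40.4, 44.7, 44.5 and 43.9 exon CPM in saline libraries, against 57.9, 53.8, 55.0 and 55.0 CPM in untreated libraries, and 88.9% of its reads are unique. Ccnl2, a cyclin that pairs with kinases involved in splicing, had 190, 204, 202 and 199 exon CPM in saline libraries, against 244, 258, 260 and 278 CPM in untreated libraries. Pnn, a protein of nuclear speckles and of cell junctions, averaged 111 ± 10.3 CPM in saline and 146 ± 16.2 CPM in untreated lungs. Mdm4, an inhibitor of p53, had 186, 208, 223 and 211 exon CPM in saline libraries, against 265, 258, 260 and 332 CPM in untreated libraries. Of 17 p53 inhibitors and targets Mdm4 alone passed (0.233% of all genes). Cdkn1a, a classic p53 target, averaged 32.1 ± 1.58 CPM in saline and 34.5 ± 2.19 CPM in untreated lungs with overlapping ranges. Zc3h7a, a zinc finger protein that binds RNA, had 103, 117, 112 and 110 exon CPM in saline libraries, against 141, 141, 142 and 159 CPM in untreated libraries. Ddx26b, a relative of an Integrator subunit, averaged 106 ± 5.49 CPM in saline and 139 ± 12.2 CPM in untreated lungs. Ubp1, a transcription factor, and Txlng fell by 0.40 and 0.37 on the log2 scale, with 34.1% and 57.1% of their reads unique. Ccnl1, Ewsr1 and Wsb1 also passed, with log2 fold changes of -0.32, -0.30 and -0.32, and are named here after their values were seen. Of Wsb1's reads 24.6% are unique and of Ewsr1's 88.5%.

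The 3 rises had little in common. Cat encodes catalase, the peroxisomal enzyme that breaks down hydrogen peroxide. It had 238, 218, 226 and 216 exon CPM in saline libraries, against 202, 171, 184 and 181 CPM in untreated libraries. Cat was 1 of 31 antioxidant and peroxisomal enzymes to pass (0.233% of all genes). Prdx2, the next of that list by p, averaged 202 CPM in saline and 187 CPM in untreated lungs with overlapping ranges. Triobp, which bundles actin, had 54.5, 58.8, 56.3 and 50.3 exon CPM in saline libraries, against 42.8, 49.1, 41.0 and 41.7 CPM in untreated libraries, and 61.8% of its reads are unique. Pdzrn3, a ubiquitin ligase, averaged 85.7 ± 5.64 CPM in saline and 69.2 ± 4.49 CPM in untreated lungs, but only 15.5% of its reads are unique.

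The daily saline mean was the lowest of the 5 groups of that age in 30 of the 30 lower genes (25% of all genes tested), and in 8 of them every saline library also lay below all 12 libraries given water or an oligonucleotide (0.607% of all genes). Ptbp2, for example, averaged 54.7 CPM after saline and 69.6, 65.2 and 65.9 CPM after water, scrambled 1 and scrambled 2. Since the saline libraries chose these genes, this is a description. In those 12 libraries, which are on neither side of the contrast but shared in the estimate of spread behind the calls, the 30 genes are described as follows. Their median intron share was 24.0%, beside 15.3% over all genes tested, and 22 of the 30 lay above 15.3%. Their median level was 142 exon CPM beside 29.9 CPM, and all 30 lay above that median. They had a median of 18 annotated exons beside 13. Small changes pass the threshold more readily at high counts, and no set of genes matched on level was compared.

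Intron reads were compared next, to set the amount of unspliced RNA against that of spliced RNA. Of all reads in genes with exon reads, introns took 8.69%, 10.2%, 10.0% and 11.2% in saline libraries, against 10.9%, 12.3%, 12.2% and 15.5% in untreated libraries. The highest saline library overlapped with the lowest untreated one. The means were 10.0 ± 1.04% in saline and 12.7 ± 1.95% in untreated lungs (SD, n = 4 each), a difference of -2.67 percentage points (exact permutation test, two-sided p = 0.0571, where 0.0286 is the smallest that 4 against 4 allows). With the records that have no exon reads included, the ranges separated and the difference was -2.92 points (exact p = 0.0286). Without untreated replicate 4 the difference was -1.76 points (exact p = 0.0857). Reads spanning exon junctions, a measure of spliced RNA, made up 24.9 ± 0.236% of exon reads in saline and 24.4 ± 0.428% in untreated lungs (exact p = 0.0857).

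**Figure D2:**
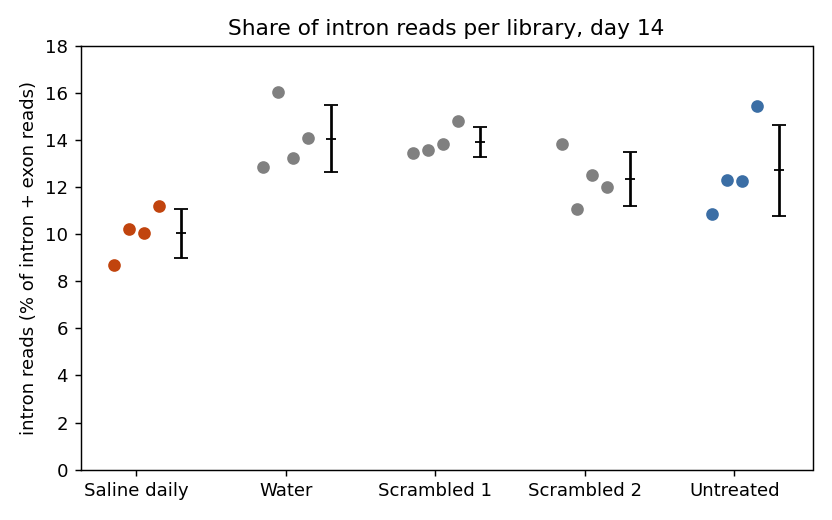
Intron reads as a percentage of intron plus exon reads (y axis) in the 20 libraries of postnatal day 14 by group, 1 point per library, with the mean and SD beside them in black. The saline libraries lie at 8.69% to 11.2%, the untreated ones at 10.9% to 15.5%.

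The size of the intron change per gene depends on what the intron reads are scaled to. Scaled on exon reads, the median of 12336 genes was -0.42 on the log2 scale, 11719 genes lay below 0, and 2088 genes passed as lower and 6 as higher in edgeR (16.9% and 0.0486%). The 2088 was 0 in the fits without saline replicate 1 or 3, or without untreated replicate 2 or 4, 272 without saline replicate 2, 1034 without untreated replicate 3, 3863 without saline replicate 4 and 5072 without untreated replicate 1. It was also 0 with only the 8 samples, or with Xist as a covariate. The direction was general, and the number of calls was not stable.

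Scaled on intron reads themselves, which removes that shift, 2 genes rose and 0 fell in edgeR (0.0162% higher, 0% lower; 929 at an unadjusted p under 0.05, and 44 higher and 4 lower with DESeq2). Clec2d, a C-type lectin, had 31.4, 51.6, 23.0 and 23.4 intron CPM in saline libraries, against 7.43, 10.5, 9.25 and 5.97 CPM in untreated libraries, from 175 intron reads in the 8 libraries. Its log2 fold change was 1.97 (SE 0.32, edgeR adjusted p = 0.00790), and its exon change was 0.15 (edgeR adjusted p = 0.673). Without saline replicate 2, the highest, it was 1.63 (edgeR adjusted p = 0.162), and without untreated replicate 4 1.80 (edgeR adjusted p = 0.146). Fam227b had 122, 114, 115 and 103 intron CPM in saline libraries, against 74.3, 69.8, 48.6 and 48.9 CPM in untreated libraries. Only 6.78% of these reads map to a single place, and it passed in 3 of the 8 edgeR fits with 1 library left out. Introns held 98.4% to 100% of its reads, and it had too few exon reads for the exon test, so its intron change cannot be set against an exon change. Tmem56, Lrrc8d and Glb1 followed by p and did not pass, with log2 fold changes of 1.04, 0.59 and 0.47. Of their intron reads 80.6%, 19.5% and 19.0% map to a single place, and with unique reads Lrrc8d stood at -0.08.

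The median intron change of the 30 genes lower in exon reads lay near that of all genes. With intron scaling their median log2 intron change was -0.06, beside -0.003 over all genes, and 0 of the 30 passed by edgeR (0% of all genes lower). With exon scaling it was -0.47, beside -0.42 over all genes. Of the 30, 15 then passed as lower, a larger share than the 16.9% of all genes. No genes matched on level were compared with the 30. Their intron share, as a percentage of the gene's own reads, had a median of 21.7% in saline and 22.8% in untreated lungs. It was lower in saline in 21 of the 30 and higher in 9, in libraries whose intron share was lower in saline as a whole. Relative to that general shift the direction was the other way: with each kind of read scaled on itself, the intron change of 29 of the 30 was above the exon change, by a median of 0.32 on the log2 scale beside 0.01 over all genes, and 2 passed by edgeR (0.0915% of all genes higher). With exon scaling of the intron reads the median was -0.08, beside -0.40 over all genes. Both differences subtract the exon change by which the 30 were chosen, so they describe these genes and are not a test. Clk4 had 42.8 ± 3.50% of its reads in introns in saline and 44.3 ± 5.29% in untreated lungs. Arglu1 had 55.0 ± 2.26% in saline and 54.5 ± 3.97% in untreated lungs, and Ogt 22.2 ± 1.35% in saline and 21.9 ± 3.34% in untreated lungs. In these 3 genes the group means differed by less than the SD.

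**Figure D3:**
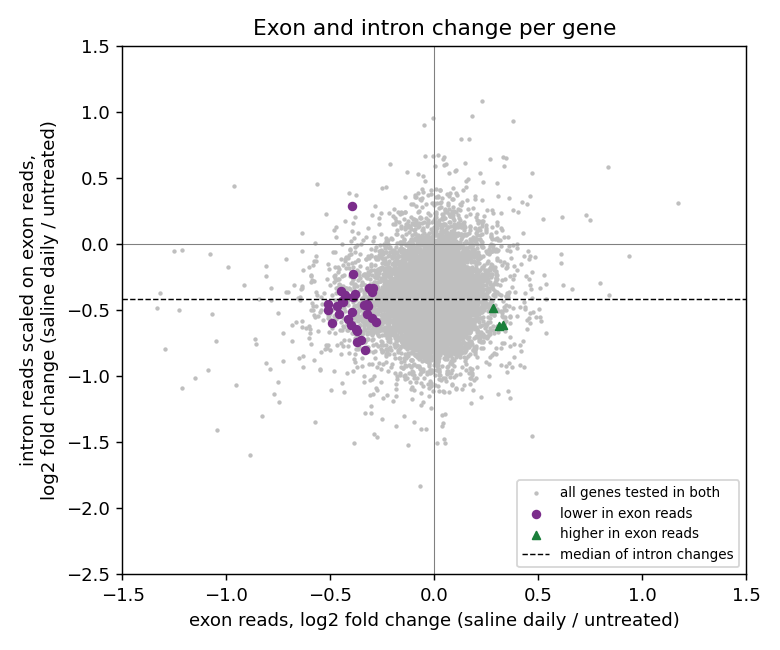
Log2 fold change of exon reads (x axis) and of intron reads scaled on exon reads (y axis), saline daily over untreated, for 12017 genes tested in both (5 lie outside the axes). The cloud is centred near 0 across and at -0.42 down (dashed line), and the 30 lower genes (purple) lie left of the cloud's centre at about the same height, 1 of them above 0.

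A model that holds exon and intron counts of each library together tested whether intron reads changed more or less than exon reads of the same gene. With each kind scaled on itself, 11 of 12017 genes had a higher and 3 a lower intron change (0.0915% and 0.025%, edgeR; 1214 at an unadjusted p under 0.05). With the intron reads scaled on exon reads, 5 were higher and 1614 lower, and the median of all genes moved to -0.40. Without untreated replicate 4 the 11 and 3 became 1 and 0 by edgeR with 964 under 0.05 before adjustment, and none of the named genes passed.

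The 3 lower genes, Col1a1, Ptk7 and Rtf1, passed under both scalings. Exon scaling of the intron reads moved the median of all genes to -0.40, and 13.4% of all genes then passed as lower by edgeR. Passing under exon scaling is therefore not separate support for genes that were already lower. Rtf1, which works with RNA polymerase II during elongation, had 6.798%, 7.65%, 7.13% and 7.52% of its reads in introns in saline libraries, against 10.7%, 14.4%, 14.1% and 17.0% in untreated libraries. Ptk7, a receptor-like protein of planar cell polarity, had 5.25%, 6.62%, 5.59% and 6.21% in saline libraries, against 8.64%, 10.9%, 11.2% and 12.5% in untreated libraries. The ranges were apart in both. Col1a1, a chain of the main fibrillar collagen, had 0.355%, 0.840%, 0.463% and 0.610% in saline libraries, against 0.775%, 1.33%, 1.18% and 1.73% in untreated libraries, with overlap. Their intron against exon log2 changes were -0.65 (SE 0.15), -0.54 (SE 0.12) and -0.74 (SE 0.15) for Rtf1, Ptk7 and Col1a1, with edgeR adjusted p of 0.0486, 0.0349 and 0.0277. Their exon changes were 0.04, 0.15 and 0.17, none of which passed. Without untreated replicate 4 the changes were -0.67, -0.58 and -0.70 (edgeR adjusted p = 0.140, 0.0984 and 0.105). Each of the 3 lost its call in at least 6 of the 8 edgeR fits with 1 library left out.

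Of the 11 higher genes 10 are named, and 1 has a predicted name. They are Pfkfb2, Nudt6, Ptbp2, Mdm4, Nktr, Slc25a36, Usp37, Mib1, Phf20l1 and Zc3h11a. Only 6.83% of the intron reads of Usp37 and 31.3% of those of Zc3h11a map to a single place. The share was 57.8% in Slc25a36, 69.7% in Pfkfb2, 81.5% in Mdm4 and at least 98.6% in the rest of the 10. The log2 values of the 10 relative to the general intron shift ran from 0.49 to 0.62. With exon scaling of the intron reads they ran from 0.09 to 0.21, and 0 passed by edgeR (0.0416% higher and 13.4% lower among all genes). Each of the 10 passed in at most 4 of the 8 edgeR fits with 1 library left out. Nudt6, whose gene overlaps that of a fibroblast growth factor on the other strand, had 54.4%, 55.9%, 50.5% and 55.4% of its reads in introns in saline libraries, against 49.9%, 52.9%, 48.7% and 50.2% in untreated libraries. Whether the counting used strand is not given in the sources used here, so reads of that pair may be mixed. Mdm4 averaged 23.8 ± 2.29% in saline and 22.8 ± 3.92% in untreated lungs. The ranges of all 10 overlapped, and their mean intron share was higher in saline in 10 of 10, where that of the libraries was 10.0% in saline and 12.7% in untreated lungs. The genes were chosen by a rise of intron against exon reads, so the 10 of 10 describes them and is not a test.

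Zc3h7a differed from the other 29. It had 75.5%, 76.9%, 77.5% and 76.8% of its reads in introns in saline libraries, against 70.2%, 64.4%, 65.4% and 68.1% in untreated libraries, without overlap. Its intron against exon log2 change was 1.10 (SE 0.25, edgeR adjusted p = 0.103), and with exon scaling of the intron reads 0.69 (edgeR adjusted p = 0.0273). The first value was 0.99 without untreated replicate 4 (edgeR adjusted p = 0.384). Of its intron reads 26.9% map to a single place.

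Long non-coding RNAs, several of which stay in the nucleus, were read outside the exon table where their records hold no exon reads. Of a list of 14, 10 had no exon reads and a mean of at least 1 read per 1000000 exon reads. Of the others, Miat lay below that level, Kcnq1ot1 was listed at 0, Norad was not analysed here, and Snhg11 had exon reads, with an exon log2 fold change of -0.38 that did not pass. Scaled to exon reads, levels averaged lower in saline lungs for all 10, with a median log2 ratio of -0.48, and the ranges did not overlap in 8. Of all 1593 records without exon reads at that level, 76.7% averaged lower, the median was -0.25 and the ranges were apart in the lower direction in 12.7%. Without untreated replicate 4 the 10 records were all lower, with a median of -0.41 and 8 without overlap. Malat1, which gathers in nuclear speckles beside splicing factors, had 644, 1245, 1011 and 1260 reads per 1000000 exon reads in saline libraries, against 1281, 1446, 1669 and 1905 in untreated libraries. Saline replicate 1 was by far the lowest, and the groups were nearly in contact. Neat1, the scaffold of paraspeckles, had 588, 597, 645 and 583 in saline libraries, against 890, 836, 849 and 1039 in untreated libraries (log2 ratio -0.58, exact permutation test, two-sided p = 0.0286, the smallest possible, and 0.0357 after Benjamini-Hochberg adjustment over the 10 records, as in each of the 8 without overlap). Meg3, an imprinted RNA, averaged 155 ± 18.3 in saline and 220 ± 28.0 in untreated lungs. Gas5, a host of small nucleolar RNAs, averaged 49.5 ± 4.01 in saline and 68.6 ± 7.51 in untreated lungs. Snhg14 and Jpx overlapped between the groups (exact p = 0.457 and 0.0857). The log2 ratio of Malat1 was -0.49 (exact p = 0.114) and that of Neat1 -0.51 (exact p = 0.0286) when untreated replicate 4 was left out. The median of -0.48 for the 10 records stood beside -0.25 over all records without exon reads and a general intron shift of -0.42. A link between these was not tested.

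**Figure D4:**
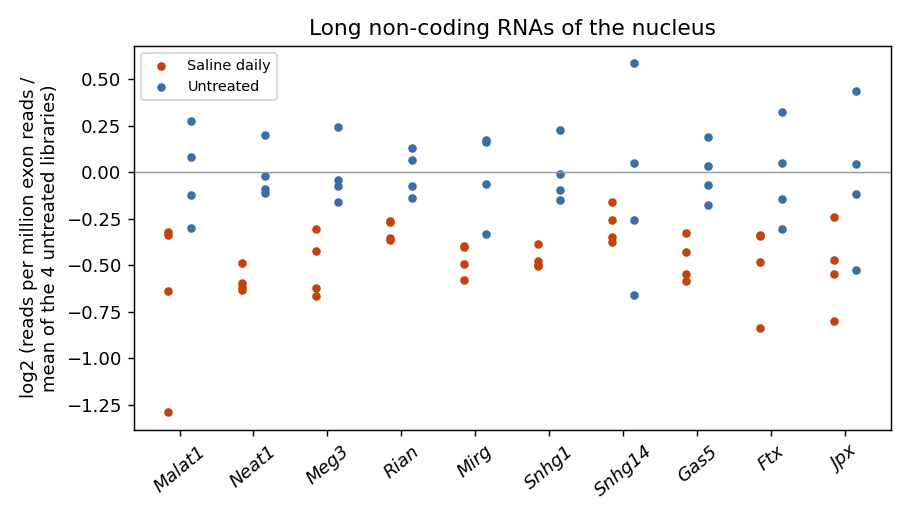
Levels of 10 long non-coding RNA records (reads per 1000000 exon reads), as log2 of the ratio to the mean of the 4 untreated libraries (y axis), 1 point per library. Saline daily points (orange) lie below all untreated points (blue) in 8 of 10 and overlap in Snhg14 and Jpx.

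The exon change also went with how much of a gene's reads fall in introns. Genes were ranked by their intron share in the 12 libraries outside the contrast and cut into 10 equal bins. The median exon log2 fold change was 0.04 in the first bin (intron share up to 3.40%) and -0.08 in the tenth (40.2% and more), and from the third bin on each median was below that of the bin before. Every bin's quartiles reached to both sides of 0. Of the 30 lower genes 21 were in the upper 4 bins. With the intron share of each library as a covariate, 0 genes passed by edgeR, with 1245 under 0.05 before adjustment. The 30 genes then had a median of -0.25, and all 30 stayed below 0. The intron share itself differed between the groups, at 8.69% to 11.2% in saline and 10.9% to 15.5% in untreated libraries. A fit with this covariate therefore cannot separate the share from the treatment. The part of the library-wide intron share in the exon calls was not tested otherwise.

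**Figure D5:**
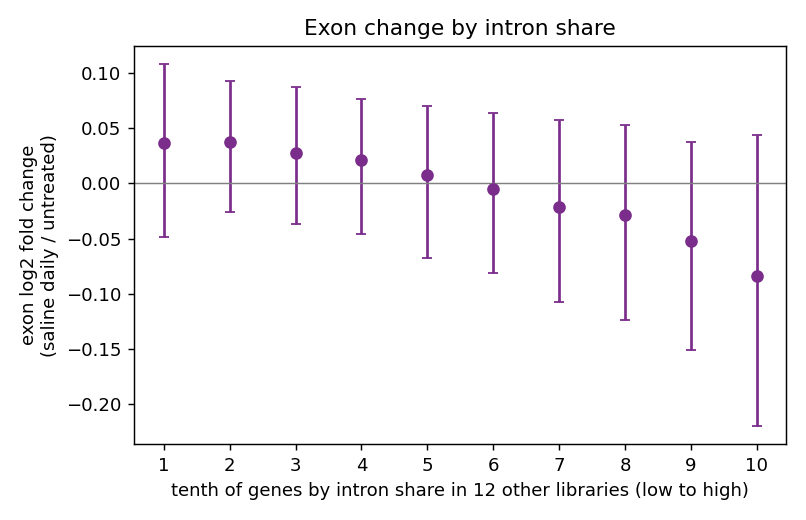
Exon log2 fold change, saline daily over untreated (y axis), in 10 bins of genes by intron share in the 12 other libraries of that age (x axis, low to high). Points are medians and bars span the quartiles; medians run from 0.04 to -0.08.

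Outside splicing, 33 of 35 gene lists had no gene past the threshold. Lists that bear on repeated fluid and handling were among them. Of 21 sodium channels, pumps and water channels 12 lay above 0 and 0 passed by edgeR (0.233% of all genes). Scnn1b, a subunit of the epithelial sodium channel, had 50.3, 44.2, 50.1 and 61.5 exon CPM in saline libraries, against 42.0, 42.3, 46.9 and 41.8 CPM in untreated libraries, and Aqp1 averaged 1089 ± 25.6 CPM in saline and 1005 ± 16.6 CPM in untreated lungs. Neither passed, with edgeR adjusted p of 0.292 and 0.579. Of 7 osmotic stress genes, 19 glucocorticoid targets, 19 immediate early genes and 14 cytokines and chemokines 0 passed, with medians of 0.09, 0.05, 0.00 and 0.01. Nfat5, the transcription factor of osmotic stress, averaged 268 ± 18.3 CPM in saline and 315 ± 55.8 CPM in untreated lungs, with overlap.

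Genes of alveolar structure lay mostly above 0, as did those of several other lung lists. Of 12 club and ciliated cell genes 10 lay above 0, of 21 endothelial 17 and of 14 smooth muscle 12. Other lists did not lean that way: of 18 fibroblast and pericyte genes 9 lay above 0, and of 23 macrophage and monocyte genes 6. Of 15 alveolar type 1 cell genes 14 lay above 0 (median 0.19) and of 24 collagens 21 (median 0.13), beside 50.5% of all genes, and 0 passed by edgeR in either list. Saline replicate 4 stood apart: it was the highest of the 8 libraries in 12 of the 15 and 16 of the 24. The median log2 ratio to the untreated mean of the alveolar type 1 genes was 0.34 in that library, against 0.09 to 0.20 in the other saline libraries. Without it 14 of the 15 and 19 of the 24 lay above 0, with medians of 0.13 and 0.09. Spock2, a matrix proteoglycan of those cells, had 358, 393, 366 and 482 exon CPM in saline libraries, against 298, 317, 340 and 329 CPM in untreated libraries, without overlap, with an edgeR adjusted p of 0.203. Col4a5, a basement membrane collagen, had 293, 311, 321 and 381 exon CPM in saline libraries, against 237, 252, 280 and 253 CPM in untreated libraries, also without overlap (edgeR adjusted p = 0.235). The introns of collagens did not follow: with intron scaling their median was -0.12, with 17 of 22 below 0.

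Markers of neighbouring tissue varied between libraries. All 12 cardiomyocyte genes lay below 0 (median -0.80) and 0 passed, with a summed level of 218 to 361 CPM in saline and 227 to 758 CPM in untreated lungs. Of 9 adipose genes tested all lay below 0, with sums of 50.2 to 69.4 CPM in saline and 39.03 to 153 CPM in untreated lungs. No member of the cardiomyocyte or adipose list was at 0 in all 8 libraries. Myh6, the heart muscle myosin, had 65.9, 56.8, 63.2 and 24.0 exon CPM in saline libraries, against 203, 76.0, 97.9 and 56.6 CPM in untreated libraries. Untreated replicate 1 was the high library there. In the 30 lower genes, untreated replicate 4 was the highest of the untreated libraries in 26 and untreated replicate 1 in 4. Without untreated replicate 1 the median of the 30 was -0.39. The part of these tissues in the splicing gene changes was not tested, and leaving out 1 library does not test it.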

How the data were processed

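Lung RNA was sequenced from a stranded library of polyadenylated RNA, per the labels' protocols, and bcl2fastq 2.0 is named for demultiplexing, per the submitters' processing notes. No source used here names the aligner, the counter, the genome build or whether strand was used in counting. The deposited files give counts of exon, intron and exon-exon (junction) reads for 46165 gene records, as total counts (multi-mapping reads included) and as unique counts, and the tests used the total counts. Other deposited values, such as exon numbers and lengths, described genes only. The RefSeq table of GRCm38.p6 held 42999 of the gene IDs, and 97.4% of these start within 5 kb of the start given there. Records of several non-coding RNAs hold no exon reads.

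Samples were grouped by the treatment label. The 20 libraries of day 14 (5 groups) were fitted with edgeR 4.0.16 (R 4.3.3; low counts removed by filterByExpr, TMM scaling, robust quasi-likelihood F test) for the contrast of daily saline with untreated, with Benjamini-Hochberg adjustment over all genes tested and a threshold of 0.05. CPM are TMM-scaled, means carry the SD, and an SE is the size of the log2 change over the square root of F. Intron reads were scaled on intron reads, and alternatively on exon reads. A joint model (library, read type, type by group) tested intron against exon change. Single values were compared by two-sided exact permutation. Scripts were tested on simulated data. Replicates of a group differed by 2.57 to 9.30 in chi-square per gene over 12 pairs, so none was counted again. Replicate numbers were not taken as pairs.

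The contrast, the 42 gene lists and the tests were chosen with earlier results of these data known. Named were up to 30 exon genes past the threshold by smallest p with a mean of at least 1 CPM, up to 10 rises and 10 falls of each intron comparison (the 5 smallest p where fewer than 5 passed), and up to 4 members per list described, without predicted names, Xist and Y-linked genes. Members of a list beyond the rule were chosen after their values were seen. A planned count of arginine-serine pairs in proteins was not run, as no protein table was used here. Alternatives were DESeq2 1.42.0, other scaling, filter, reads, samples, covariates and left-out libraries.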

Additional observations from a re-analysis of the deposited data

Results flagged for a closer look

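Of 128 sets of 4 libraries examined for a lone value, 9 were flagged, where chance flags about 1 in 20. All 9 were exon levels of genes that fell in saline lungs, and in each case 1 library lay high and far from its 3 group members. Untreated replicate 4 was that library in 7 of the 9. It had 593 CPM of Ogt where the other untreated libraries had 495 to 509, and 332 CPM of Mdm4 where they had 258 to 265. It had 159 CPM of Zc3h7a (others 141 to 142), 168 of Tia1 (others 143 to 144), 146 of Tial1 (others 127 to 130), 124 of Prpf39 (others 104 to 107) and 59.2 of Rnpc3 (others 50.2 to 51.5). The same library had the highest intron share, 15.5%. Rnpc3 also had a lone high value in saline replicate 4, at 41.9 CPM where the others had 37.5 to 37.9. Ptbp2 had 79.3 CPM in untreated replicate 1, where the other untreated libraries had 69.3 to 69.5. Without untreated replicate 4, all 30 lower genes stayed below 0 at a median log2 of -0.34, and 1 passed in edgeR. Its part in the calls was not tested otherwise.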

How the results depend on the processing

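The call counts depended on the fit far more than the directions did. For exon reads (3 higher, 30 lower), DESeq2 gave 29 and 85, only the 8 samples 9 and 66, the intronic share as a covariate 0 and 0, and junction reads 1 lower. RLE scaling, no low-count filter, unique reads and Xist stayed within 1.5 times. Of the 30 falls, all 30 still passed with RLE scaling or no filter and 26 with unique reads. With Xist as a covariate only 19 of the 30 did, and the counts were 2 higher and 20 lower. For intron reads (2 higher, 0 lower), exon scaling gave 6 and 2088, DESeq2 44 and 4, and the count of rises was 4 without a filter, 1 with unique reads or Xist and 12 with only the 8 samples. For intron against exon (11 higher, 3 lower), exon scaling gave 5 and 1614, no filter 85 and 18, and the rises were 17 with unique reads, 5 with junction reads and 26 with only the 8 samples. For intron reads scaled on exon reads (6 higher, 2088 lower, a result added after the data were seen), unique reads gave 2 higher, only the 8 samples 0 and 0, and Xist 1 and 0. The intron share difference was -2.92 points over all gene records. With 1 library left out, exon counts ran from 0 to 1 higher and 1 to 8 lower, intron counts from 0 to 40 higher and stayed at 0 lower, intron against exon from 0 to 58 higher and 0 to 8 lower, exon-scaled introns from 0 to 11 higher and 0 to 5072 lower, and the share difference from -3.29 to -1.76 points. Replicate numbers were not taken as pairs, because nothing in the labels ties them and not every correlation of same-numbered libraries passed 0.1: these were 0.03 to 0.26, 3 of 4 over 0.1, and 2 of 4 saline libraries correlated best with their own number. With the replicate block 3 exon genes were higher and 34 lower, 28 of the 30 falls passed (not Thoc1 and Luc7l, edgeR adjusted p = 0.0513 and 0.0541), 8 intron genes were higher, 26 and 6 passed in intron against exon, and 8 and 2678 with exon scaling. Of single genes, 2 changed sign: Rbm4b at 0.0414 in junction reads and Lrrc8d at -0.0828 in unique intron reads. The cause was not tested. DESeq2 was not run for intron against exon. Intron changes were the less precise: the median SE was 0.175 for introns and 0.0939 for exons on the log2 scale.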
